A study of Mus musculus with 6 samples.

Results

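Glycolytic enzyme genes were followed across 6 infarcted mouse hearts, 1 Clariom S array per heart. The set was chosen by name and holds 10 genes, Hk1, Hk2, Pfkm, Pfkl, Aldoa, Pgk1, Pgam1, Pgam2, Ldha and Ldhb. Each gene had 1 feature on the array, so the 10 genes are 10 of 22206 features measured. Transgenic mice (TTg) had the genotype Tcf21iCre/Tomato/MGTH2A and were sampled 3 months after infarction (n = 2). Control mice (Ctrl) had the genotype Tcf21iCre/Tomato and were sampled 3 months (n = 2) or 2 months (n = 2) after infarction. All 6 mice were male, aged 8 weeks in the labels, with the left coronary artery ligated, and all carried the Cre and the Tomato reporter. Tcf21 is expressed in fibroblasts of the heart, and MGTH2A is a transgene for Mef2c, Gata4, Tbx5 and Hand2, transcription factors of the developing heart. Mice whose ejection fraction was above 45% at 2 days were removed from the study. The RNA came from the whole heart, so fewer cells of a type and less RNA per cell cannot be told apart.

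Glycolysis splits glucose into pyruvate in the cytosol and yields ATP without oxygen. The adult heart draws most of its ATP from fatty acid oxidation, and its use of glucose is known to increase in hypertrophy and failure. Hexokinase traps glucose as glucose 6-phosphate, phosphofructokinase makes the committed step, aldolase cleaves the hexose, phosphoglycerate kinase yields ATP, phosphoglycerate mutase moves the phosphate, and lactate dehydrogenase interconverts pyruvate and lactate. Several steps have 1 form enriched in striated muscle (Hk2, Pfkm, Aldoa, Pgam2) and others expressed more widely (Hk1, Pfkl, Pgam1), whereas Ldhb is the heart form and Ldha the form of fast skeletal muscle and hypoxic cells. Pgk1 is used by nearly all somatic cells.

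Values below are the deposited log2 signals, and each difference between groups is on the log2 scale with its SE, from a limma fit over all features (n = 2 arrays per group). No member reached 19 on any array, a mark set near the top of the scale. The highest member value was 18.71, for Aldoa, whereas each array had 35 to 41 features at 19 or more. Precision is limited by having 2 arrays a group. Arrays of a group correlated at 0.984 to 0.989 across features.

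The 4 factors of the transgene had higher means in TTg than in 3-month Ctrl (50.9% of all features), and none passed the test. Their median difference was 1.61, 0.79 without TTg replicate 1 and 2.42 without TTg replicate 2. Without TTg replicate 1 the difference was 1.245 for Mef2c and 0.34 for Hand2. Mef2c was at 15.93 and 13.94 in TTg, 12.52 and 12.87 in 3-month Ctrl, and 12.16 and 12.07 in 2-month Ctrl. Tbx5 was at 10.72 and 9.31 in TTg, 6.42 and 7.47 in 3-month Ctrl, and 7.79 and 7.98 in 2-month Ctrl. Both were above all Ctrl arrays on both TTg arrays. So, by a narrow margin, was Hand2, at 9.40 and 8.13 in TTg, 8.01 and 7.57 in 3-month Ctrl, and 7.53 and 7.03 in 2-month Ctrl. Of all features, 19.1% were higher in TTg without overlap against 3-month Ctrl and 21.2% against 2-month Ctrl. Gata4 overlapped at 3 months, at 14.05 and 13.43 in TTg, 13.22 and 13.75 in 3-month Ctrl, and 12.80 and 13.0 in 2-month Ctrl.

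Some arrays stood apart in genes of other cell types. Of 11 skeletal muscle markers, 10 were highest on Ctrl 2-month replicate 1, where their mean log2 signal was 6.51. On the other 5 arrays that mean lay between 3.74 and 3.94, and 4 to 7 of the 11 markers were below 3.65, the 30th percentile of all features. Myh2, a fast skeletal myosin, was at 3.31 and 3.53 in TTg, 3.81 and 3.31 in 3-month Ctrl, and 10.51 and 3.34 in 2-month Ctrl. Ctrl 3-month replicate 1 had the highest value for 5 of 7 macrophage and 3 of 7 fibroblast markers, and Ctrl 2-month replicate 1 for the other 2 macrophage and 4 fibroblast markers. Means of the fibroblast markers were 11.15 and 9.72 in TTg, 12.67 and 11.55 in 3-month Ctrl, and 12.68 and 10.78 in 2-month Ctrl. Macrophage markers were at 8.73 and 7.98 in TTg, 10.69 and 9.19 in 3-month Ctrl, and 10.19 and 9.54 in 2-month Ctrl. TTg thus had lower means than 3-month Ctrl in 7 of 7 fibroblast and 7 of 7 macrophage markers (48.3% of all features). In each list 6 did not overlap (19.3% of features), and none passed. The medians were −1.695 for the fibroblast and −1.515 for the macrophage markers. Without Ctrl 3-month replicate 1 these medians were −0.775 and −0.875, and without TTg replicate 2 the fibroblast median was −0.79. The 5 measured atrial markers had a mean of 7.56 on Ctrl 3-month replicate 2, against 11.98 to 14.95 elsewhere. Myl7 (3.45), Myl4 (5.90) and Sln (5.53) were at their lowest on that array, whereas Nppa was at 19.86. Bmp10 was at 11.92 and 11.46 in TTg, 2.87 and 3.04 in 3-month Ctrl, and 2.40 and 6.88 in 2-month Ctrl. The 8 cardiomyocyte markers fit the label of heart tissue and had means of 18.83 and 18.89 in TTg, 18.47 and 18.83 in 3-month Ctrl, and 18.55 and 18.73 in 2-month Ctrl. Myl2 and Mb were at 19.93, the highest value of each array, on all 6 arrays, and Tnnt2 and Actc1 were at 19 or more on all 6. Signals this near the top can hide differences. For TTg against 3-month Ctrl the list median was 0.14, and 0.005 without Ctrl 3-month replicate 1. The markers below 19 on every array were Tnni3 (0.25), Myl3 (0.03) and Ryr2 (0.85), with a median of 0.25. Tnni3 was at 18.32 on both TTg arrays and at 17.82 and 18.32 in 3-month Ctrl. Of 6 listed red cell markers, 2 were measured, at means between 5.84 and 6.43, and the 6 measured endothelial markers had means between 11.48 and 12.15. The 4 smooth muscle markers had means between 7.06 and 8.31. The part of these cell types in the results for glycolytic genes was not tested.

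**Figure D1:**
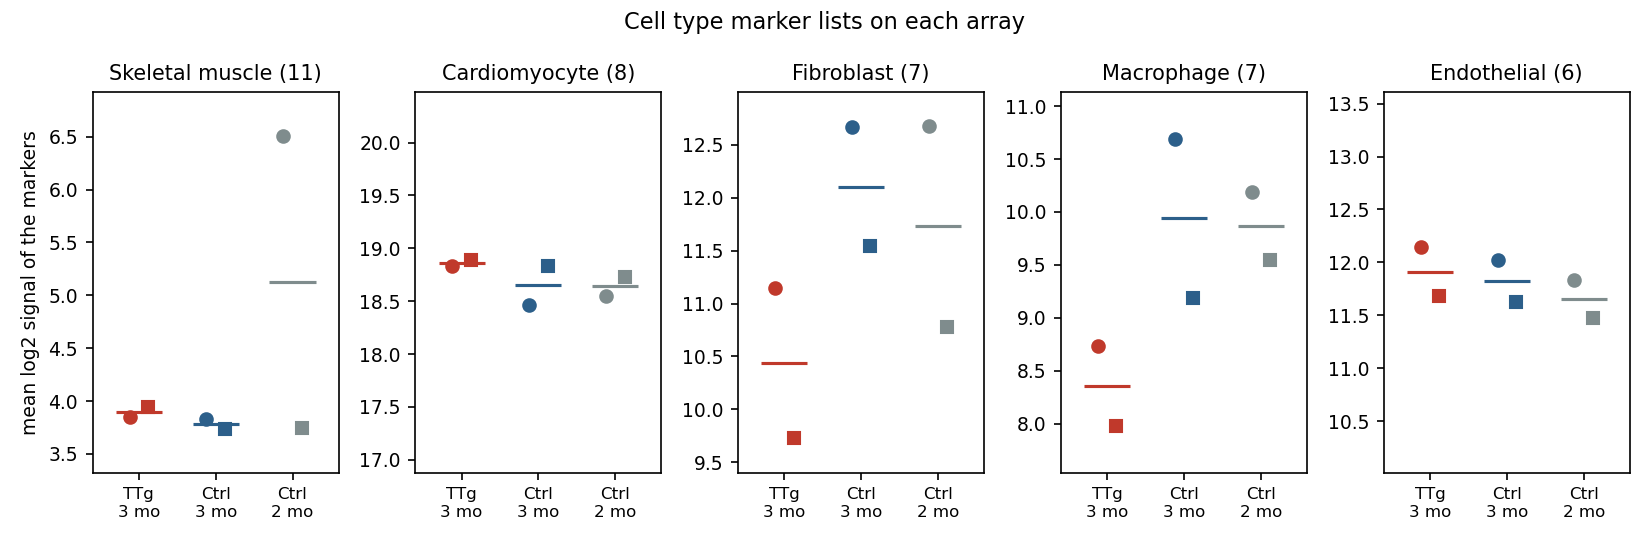
Mean log2 signal of 5 marker lists on each array (circle replicate 1, square replicate 2, bar the group mean, number of measured genes in brackets), in panels of equal height. The skeletal muscle list is at 6.51 on Ctrl 2-month replicate 1 and at or below 3.94 on the other arrays.

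Promoter windows from RefSeq (GRCm38.p6, 250 bases before to 50 after a start) were found for all 10 genes, 17 windows in all. The 160 bases before the start are shown for Hk2 and Pfkl, which had the widest ranges over the arrays, for Ldha, which held CACGTG at 2 positions, and for Pgam2, the 1 member with a MEF2 match. Capitals mark matches, on either strand, to the motifs named after the sequences.
Hk2: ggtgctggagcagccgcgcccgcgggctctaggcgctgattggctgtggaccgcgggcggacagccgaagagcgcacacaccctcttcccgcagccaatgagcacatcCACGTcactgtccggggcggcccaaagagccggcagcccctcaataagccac
Pfkl: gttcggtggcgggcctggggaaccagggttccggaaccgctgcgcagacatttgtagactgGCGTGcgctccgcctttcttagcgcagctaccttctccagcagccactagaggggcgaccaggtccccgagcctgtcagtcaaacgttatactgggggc
Pgam2: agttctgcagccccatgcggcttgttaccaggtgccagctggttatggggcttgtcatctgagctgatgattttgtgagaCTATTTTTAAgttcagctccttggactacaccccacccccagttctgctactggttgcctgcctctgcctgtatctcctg
Ldha: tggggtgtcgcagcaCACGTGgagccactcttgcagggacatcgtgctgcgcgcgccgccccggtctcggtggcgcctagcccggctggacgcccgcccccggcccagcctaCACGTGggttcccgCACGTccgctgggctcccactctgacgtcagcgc
These stretches are chr6:82774455-82774614 (minus strand), chr10:78009808-78009967 (minus), chr11:5803797-5803956 (minus) and chr7:46845644-46845803 (plus). Each lies inside its RefSeq window and ends just before the start. That of Ldha belongs to the first of its 2 windows and lies inside the annotated gene, chr7:46842274-46855627. The HIF site was searched by its core ACGTG and by the variant core GCGTG. The E-box was searched as CACGTG, which contains the first of these, the T-box core as AGGTGT, the GATA site as AGATAA or, separately, with a different first base as TGATAA, and the MEF2 site by its name. ACGTG was in 9 of the 17 member windows, covering 7 of the 10 genes, and in 19.6% of all 32851 windows. GCGTG was in 8 of 17 and in 32.4% of all windows. CACGTG was in 2 of 17 (7.15% of all windows), in Pfkm and, at 2 positions, in Ldha. The MEF2 site was in 1 of 17 (3.19%), AGGTGT in 2 (13.7%), AGATAA in 3, all of Pfkm (11.2%), and TGATAA in 2 (9.05%). Windows of 1 gene can overlap, and a match of letters is a description only.

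TTg hearts were first set against 3-month Ctrl hearts, which asks how the 4 factors bear on hearts at the same time after infarction. The muscle form of phosphofructokinase had the largest difference of the 10 genes, with a higher mean in TTg hearts, followed by the heart form of lactate dehydrogenase and by hexokinase 1. The other forms of phosphofructokinase, phosphoglycerate mutase and lactate dehydrogenase had slightly lower means. In all, 5 of 10 members had a higher mean in TTg (50.9% of all features), 4 a lower one (48.3%) and 1 no difference, with a median of 0.03 against 0.01 over all features. No member passed at an adjusted p under 0.05 (lowest 0.665), where 0.0045% of all features passed. At an unadjusted p under 0.05 there was 1 of 10 members, Pfkm, a share near the 7.47% of all features (3.35% higher and 4.11% lower). The groups did not overlap in 5 of 10 members, against 38.4% of features, with 3 members higher (19.1%) and 2 lower (19.3%).

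Hk1, the hexokinase of most tissues, was at 14.39 and 14.10 in TTg, 13.68 and 14.08 in 3-month Ctrl, and 13.26 and 13.48 in 2-month Ctrl. TTg was highest and 2-month Ctrl lowest, and no groups overlapped. The difference of TTg from 3-month Ctrl was 0.37 ± 0.26 (1.29-fold, adjusted p = 0.803). It was 0.165 without Ctrl 3-month replicate 1, 0.565 without replicate 2 of that group and 0.22 without TTg replicate 1. Hk2, the insulin-responsive hexokinase of muscle, was at 13.93 and 14.15 in TTg, 13.38 and 14.21 in 3-month Ctrl, and 12.47 and 13.51 in 2-month Ctrl. TTg lay within the span of 3-month Ctrl, at 0.25 ± 0.42 (adjusted p = 0.939), and the difference was −0.17 without Ctrl 3-month replicate 1, 0.66 without replicate 2 of that group and 0.135 without TTg replicate 2. Hk2 had the widest range of the 10 genes, 1.74 over the 6 arrays.

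Pfkm, the muscle subunit of phosphofructokinase, was at 16.69 and 16.77 in TTg, 15.91 and 16.37 in 3-month Ctrl, and 15.93 and 15.97 in 2-month Ctrl. Both TTg arrays lay above all 4 Ctrl arrays, and the 2 Ctrl groups overlapped. The difference at 3 months was 0.59 ± 0.25 (1.51-fold, 95% interval 0.00159 to 1.18, unadjusted p = 0.0495, adjusted p = 0.665), and it was 0.36 without Ctrl 3-month replicate 1. Pfkl, the liver-type subunit, was at 11.68 and 11.85 in TTg, 11.80 and 12.11 in 3-month Ctrl, and 10.88 and 11.33 in 2-month Ctrl. The groups at 3 months overlapped (−0.19 ± 0.26, adjusted p = 0.919), and both lay above 2-month Ctrl.

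Aldoa, the aldolase of muscle and most other adult tissues, was the flattest member, with a range of 0.21. It was at 18.69 and 18.71 in TTg, 18.62 and 18.68 in 3-month Ctrl, and 18.52 and 18.50 in 2-month Ctrl. These signals, though below 19, are not far from 19.93, the highest value of each array. Signals near the top can hide differences, so the small range may not show stable expression. The groups did not overlap, but the difference of TTg from 3-month Ctrl was 0.05 ± 0.22 (95% interval −0.46 to 0.56). Pgk1 was at 14.07 and 14.17 in TTg, 14.02 and 14.22 in 3-month Ctrl, and 14.49 and 14.01 in 2-month Ctrl. Its means were equal in both groups at 3 months, with a 95% interval of −0.61 to 0.61.

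Pgam1, the widely expressed mutase, was at 9.12 and 9.16 in TTg, 9.21 and 9.32 in 3-month Ctrl, and 8.90 and 8.57 in 2-month Ctrl. Both TTg arrays lay just below 3-month Ctrl, and both 2-month arrays were the lowest (TTg minus 3-month Ctrl −0.125 ± 0.24, adjusted p = 0.943). Pgam2, the mutase of striated muscle, was at 15.13 and 14.73 in TTg, 14.77 and 15.25 in 3-month Ctrl, and 15.46 and 14.83 in 2-month Ctrl. All 3 groups overlapped, and the difference of TTg from 3-month Ctrl was −0.08 ± 0.32 (adjusted p = 0.980).

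Ldha was at 16.34 and 16.42 in TTg, 16.53 and 16.63 in 3-month Ctrl, and 16.85 and 16.22 in 2-month Ctrl. TTg lay below 3-month Ctrl without overlap, at −0.20 ± 0.28 (adjusted p = 0.917), and the arrays of 2-month Ctrl spanned both groups. Ldhb, which favours oxidation of lactate to pyruvate, was at 15.04 and 15.29 in TTg, 14.15 and 15.06 in 3-month Ctrl, and 14.97 and 15.02 in 2-month Ctrl. Ctrl 3-month replicate 1 was the low array, and the other 5 lay close together. The difference at 3 months was 0.56 ± 0.33 (1.47-fold, adjusted p = 0.755) and was 0.105 without that array and 1.015 without the other 3-month Ctrl array.

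**Figure D2:**
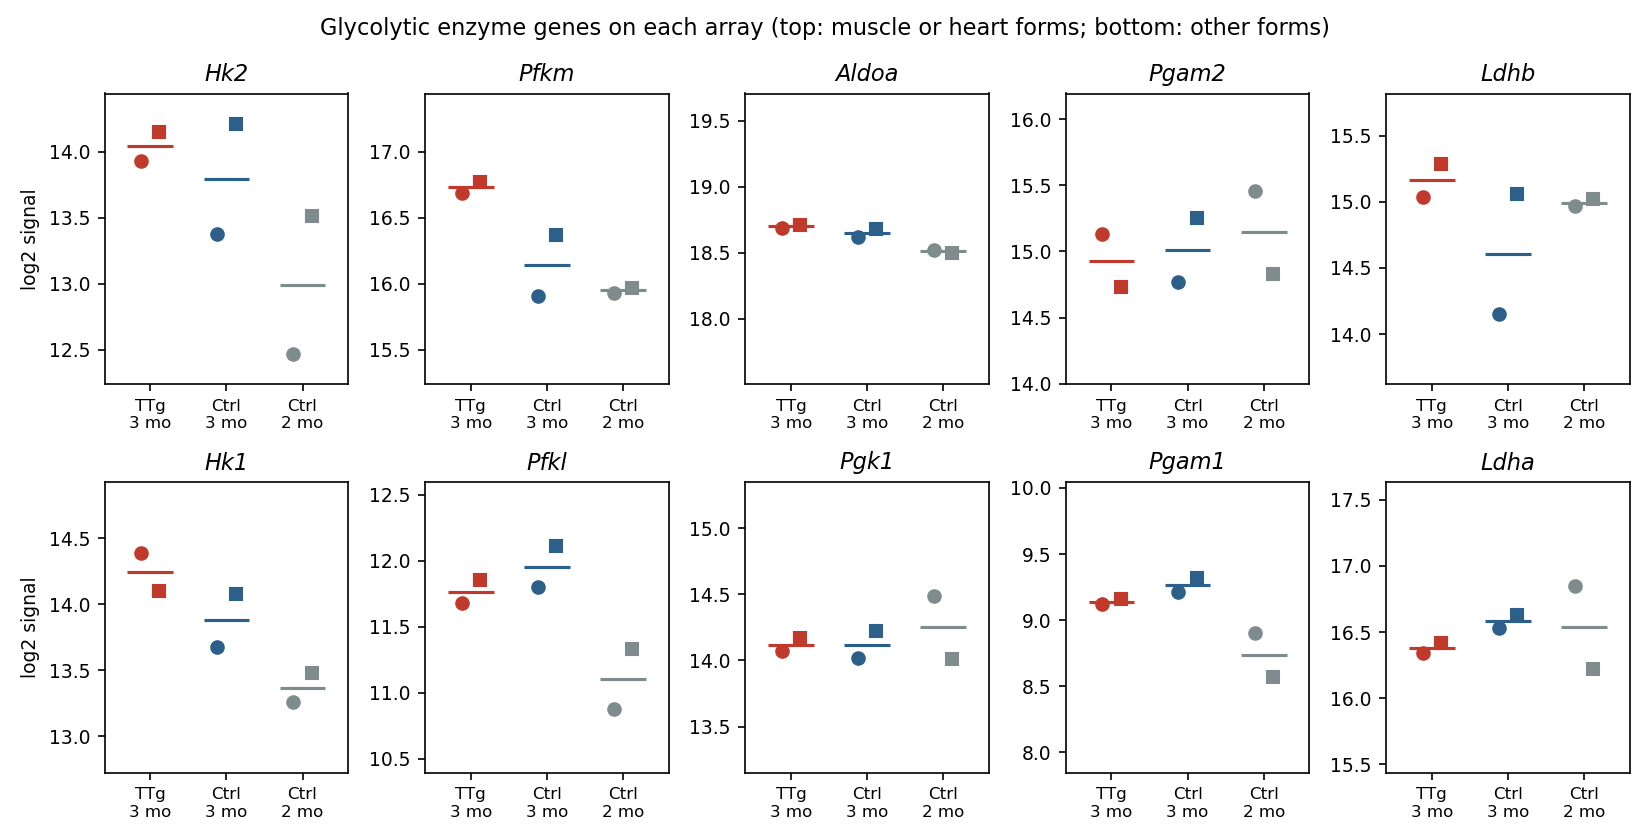
Log2 signal of the 10 genes on each array (circle replicate 1, square replicate 2, bar the group mean), in panels of equal height. Both TTg arrays of Pfkm, at 16.69 and 16.77, lie above all Ctrl arrays, and the TTg and Ctrl arrays at 3 months of Pfkl and Pgam1 lie above those of 2-month Ctrl.

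Setting 3-month against 2-month Ctrl hearts asks what changed with time after infarction without the transgene. Widely expressed forms had higher means at 3 months, with Pfkl, Pgam1 and Hk1 above their 2-month values on both arrays, and Hk2 differed by a like amount with overlapping arrays. Higher means were found in 7 of 10 members (50.5% of features) and lower ones in 3 (48.8%), with a median of 0.17 against 0.01 over all features. No member passed (lowest adjusted p = 0.537, 0.0045% of features passed). At an unadjusted p under 0.05 there was 1 of 10 members, Pfkl, a share near the 8% of all features (3.91% higher and 4.09% lower). The groups did not overlap in 4 of 10 members, against 35.7% of features. These were Hk1, Pfkl, Aldoa and Pgam1, all 4 higher (18.3% of features), with 0 lower (17.4%).

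Pfkl differed by 0.85 ± 0.26 (1.80-fold, 95% interval 0.23 to 1.47, unadjusted p = 0.0144, adjusted p = 0.537). Over the arrays left out its difference stayed between 0.625 and 1.075. Hk2 differed by 0.81 ± 0.42 (adjusted p = 0.681), and by 0.285 without Ctrl 2-month replicate 1, its lowest array. Leaving out Ctrl 3-month replicate 2 gave 0.39, replicate 1 of that group 1.22, and Ctrl 2-month replicate 2 gave 1.325. Pgam1 differed by 0.53 ± 0.24 (1.44-fold, adjusted p = 0.635) and Hk1 by 0.51 ± 0.26 (1.42-fold, adjusted p = 0.678, 0.31 without Ctrl 3-month replicate 2). Pfkm differed by 0.19 ± 0.25 and Aldoa by 0.14 ± 0.22, both with intervals that include 0. Ldhb was at −0.39 ± 0.33, a difference that rested on Ctrl 3-month replicate 1 and was 0.065 without it. Pgam2 (−0.135 ± 0.32), Pgk1 (−0.13 ± 0.26) and Ldha (0.045 ± 0.28) had their highest values on Ctrl 2-month replicate 1, the array with high skeletal muscle markers. Without that array they differed by 0.18, 0.11 and 0.36.

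The comparison of TTg with the earlier Ctrl hearts shares its arrays with the comparisons above. Its groups differ in both genotype and time after infarction, which cannot be told apart here. Means were higher in 7 of 10 members (52.1% of features) and lower in 3 (47.3%). The groups did not overlap in 7 of 10, against 40.1% of features. All 7 were higher, Hk1, Hk2, Pfkm, Pfkl, Aldoa, Pgam1 and Ldhb (21.2% of features), and 0 were lower (18.9%). At an unadjusted p under 0.05, 4 of 10 stood out, against 9.71% of features, with 4 higher (4.3%) and 0 lower (5.41%). No member passed, with a lowest adjusted p of 0.395, and 0 of all features passed, with 2156 at an unadjusted p under 0.05 in limma. Hk2 differed by 1.05 ± 0.42 (2.07-fold, adjusted p = 0.501), Hk1 by 0.88 ± 0.26 (1.83-fold, adjusted p = 0.395), Pfkm by 0.78 ± 0.25 (1.72-fold, adjusted p = 0.417) and Pfkl by 0.66 ± 0.26 (1.58-fold, adjusted p = 0.502). These 4 genes encode forms of hexokinase and phosphofructokinase. Other genes of these 2 families, outside the 10 members, differed by 0.125 (Pfkp), 0.07 (Hk3) and 0.005 (Hkdc1, a dim feature). Without Ctrl 2-month replicate 1, Hk2 differed by 0.53 and Pfkl by 0.435. Pgam1 differed by 0.405 ± 0.24 (0.24 without Ctrl 2-month replicate 2), Aldoa by 0.19 ± 0.22 and Ldhb by 0.17 ± 0.33. Pgam2 (−0.215 ± 0.32), Ldha (−0.155 ± 0.28) and Pgk1 (−0.13 ± 0.26) had lower means, and without Ctrl 2-month replicate 1 all 10 members had a higher mean in TTg.

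**Figure D3:**
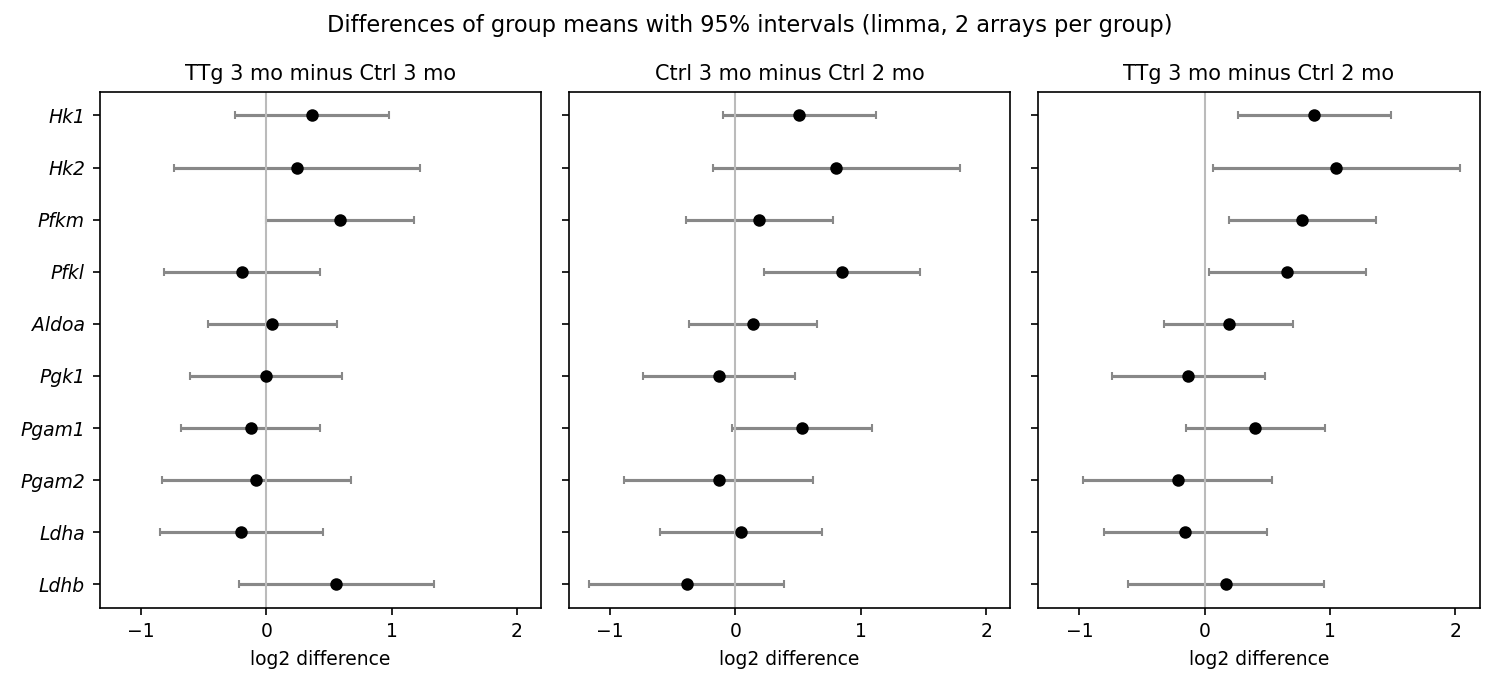
Log2 differences of group means with 95% intervals from limma for the 10 genes in the 3 comparisons (2 arrays per group). In the right panel the intervals of Hk1, Hk2, Pfkm and Pfkl lie above 0 before adjustment, and no gene passed after adjustment over all features.

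Muscle and other forms of an enzyme were compared by the difference of their log2 signals within an array, set relative to its mean over the 6 arrays, which removes the unequal brightness of the features. For phosphofructokinase this value (Pfkm minus Pfkl) was 0.345 and 0.255 in TTg, −0.555 and −0.405 in 3-month Ctrl, and 0.385 and −0.025 in 2-month Ctrl. It was thus lowest on both Ctrl arrays at 3 months, and TTg lay within the span of 2-month Ctrl. The shift was 0.78 in TTg against 3-month Ctrl (1.72-fold towards Pfkm), −0.66 in Ctrl at 3 against 2 months and 0.12 in TTg against 2-month Ctrl, with a pooled SD within groups of 0.18. In the first comparison most of it came from Pfkm and in the second from Pfkl. The exact two-sided permutation test of 2 against 2 arrays gave p = 0.3333 for the first 2 shifts, the smallest p it allows.

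For lactate dehydrogenase (Ldhb minus Ldha) the value was 0.28 and 0.45 in TTg, −0.80 and 0.0067 in 3-month Ctrl, and −0.30 and 0.38 in 2-month Ctrl. TTg lay above 3-month Ctrl by 0.76 (pooled SD 0.44, exact permutation p = 0.3333), by 0.355 without Ctrl 3-month replicate 1, and by 1.165 without replicate 2 of that group. For phosphoglycerate mutase (Pgam2 minus Pgam1) it was 0.03 and −0.41 in TTg, −0.42 and −0.05 in 3-month Ctrl, and 0.58 and 0.28 in 2-month Ctrl. Here both Ctrl arrays at 2 months were the high ones. The shift of 3-month from 2-month Ctrl was −0.665 (pooled SD 0.26, exact permutation p = 0.3333), and TTg differed from 3-month Ctrl by 0.045. For hexokinase (Hk2 minus Hk1) the groups overlapped in every comparison, with shifts of −0.12, 0.295 and 0.175 in the order of the comparisons above and a pooled SD of 0.43. Over the 5 muscle or heart forms (Hk2, Pfkm, Aldoa, Pgam2, Ldhb) the median difference was 0.25 in TTg against 3-month Ctrl and 0.14 in Ctrl at 3 against 2 months. Over the other 5 genes it was −0.125 and 0.51.

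**Figure D4:**
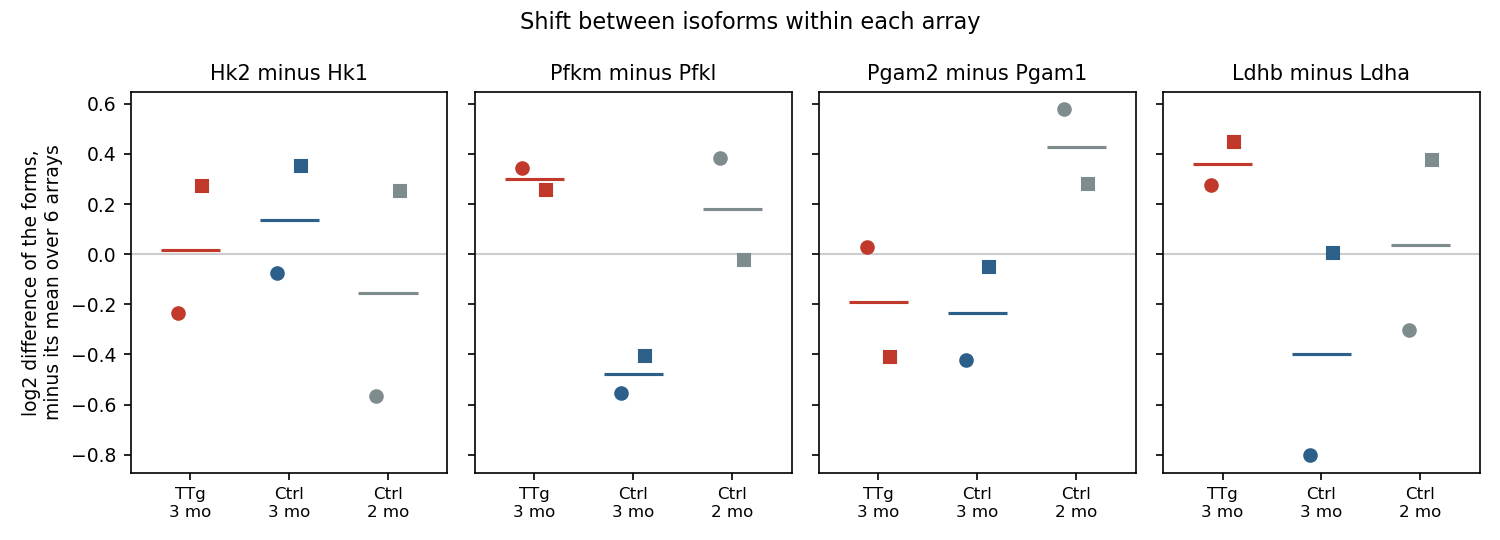
Log2 difference between 2 forms of an enzyme on each array, minus its mean over the 6 arrays (circle replicate 1, square replicate 2, bar the group mean). For Pfkm minus Pfkl the Ctrl arrays at 3 months, at −0.555 and −0.405, lie below the other 4.

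The other genes of the pathway gave no call either. Of 17 other glycolytic enzymes, 13 were measured and 5 had a higher and 8 a lower mean in TTg than in 3-month Ctrl (median −0.08). On each array 5 or 6 of the 13 were below 3.65, so the count of lower means rests partly on dim features. The median was 0.085 with the dim features left out and 0.07 without TTg replicate 2. The largest difference was that of Pfkp, the platelet-type phosphofructokinase, at 12.40 and 10.39 in TTg, 12.45 and 12.13 in 3-month Ctrl, and 11.34 and 11.20 in 2-month Ctrl. It rested on TTg replicate 2 (−0.895 ± 0.58, and 0.11 without that array). Eno3, the muscle enolase, was at 15.90 and 16.05 in TTg, 14.93 and 15.66 in 3-month Ctrl, and 16.16 and 15.83 in 2-month Ctrl, a difference of 0.68 ± 0.31 at 3 months (adjusted p = 0.679). Like Ldhb, it was lowest on Ctrl 3-month replicate 1, and it differed by 0.315 without that array and 1.045 without replicate 2 of that group. Hk3 differed by 0.54 ± 0.27 (0.29 without TTg replicate 2) and Gapdhs, the sperm form whose Ctrl values lie below 3.65, by 0.58 ± 0.24.

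Differences of TTg from 3-month Ctrl ran from −1.145 to 2.105 among transport genes, against −0.20 to 0.59 among the members. In TTg, 6 of 9 had a higher and 3 a lower mean than in 3-month Ctrl (median 0.45), and 5 were higher without overlap (19.1% of features). The median was 0.095 without TTg replicate 2 and 0.23 without Ctrl 3-month replicate 1. Slc16a7, the monocarboxylate transporter MCT2, was at 8.42 and 9.0 in TTg, 6.38 and 6.83 in 3-month Ctrl, and 7.51 and 7.18 in 2-month Ctrl. Both TTg arrays were above all Ctrl arrays, by 2.105 ± 0.30 at 3 months (4.30-fold, adjusted p = 0.578), with an adjusted p of 0.103 to 0.999 over the alternatives. Slc16a3, the lactate exporter MCT4 of glycolytic cells, was at 5.48 and 5.20 in TTg, 7.02 and 5.95 in 3-month Ctrl, and 5.49 and 5.57 in 2-month Ctrl. Its difference of TTg from 3-month Ctrl was −1.145 ± 0.36 (adjusted p = 0.661), and Ctrl 3-month replicate 1 was the highest array, without which it was −0.61. Slc2a12 differed by 1.33 ± 0.51 (0.50 without Ctrl 3-month replicate 1, 2.16 without replicate 2 of that group) and Slc2a3, on TTg replicate 2 alone, by 1.10 ± 0.58 (0.095 without that array). Slc2a3, 1 of the 5 without overlap, was at 3.02 and 5.03 in TTg and 2.86 and 2.99 in 3-month Ctrl. It was below 3.65, and so dim, on every array but TTg replicate 2. The insulin-responsive glucose transporter Slc2a4 (GLUT4) and the basal transporter Slc2a1 (GLUT1) were looked up after values had been seen. Slc2a4 was at 12.70 and 12.72 in TTg, 11.21 and 12.54 in 3-month Ctrl, and 11.92 and 12.25 in 2-month Ctrl (0.835 ± 0.42 at 3 months, adjusted p = 0.707). That difference rested on Ctrl 3-month replicate 1 and was 0.17 without it. Slc2a1 was at 9.22 and 9.52 in TTg, 10.93 and 9.02 in 3-month Ctrl, and 8.92 and 9.20 in 2-month Ctrl. Its difference of −0.605 rested on Ctrl 3-month replicate 1 and was 0.35 without it.

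All 7 measured genes for the entry of pyruvate into mitochondria had a higher mean in TTg than in 3-month Ctrl (50.9% of all features, median 0.49), 3 of them without overlap (19.1%). None passed. Dlat, the acetyltransferase subunit of pyruvate dehydrogenase, differed by 0.78 ± 0.32 (adjusted p = 0.661), Pdhx by 0.565 ± 0.33, Pdha1 by 0.54 ± 0.45 and Dld by 0.49 ± 0.30. The list mean was lowest on Ctrl 3-month replicate 1 (13.58, against 14.05 to 14.56 on the other arrays), and the median difference was 0.13 without it and 0.91 without replicate 2 of that group. Without Ctrl 3-month replicate 1, Dlat differed by 0.45, Pdhx by 0.21, Pdha1 by 0.27 and Dld by 0.13, and Pdha1 by 0.11 without TTg replicate 2. Against 2-month Ctrl, 3-month Ctrl had a lower mean in 6 of 7 (median −0.27). That median was 0.085 without Ctrl 3-month replicate 1 and −0.675 without the other array of that group, and it also came near 0 without Ctrl 2-month replicate 2.

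Among 12 regulators of glycolytic flux, 6 had a higher and 6 a lower mean in TTg than in 3-month Ctrl (median 0.03). The pyruvate dehydrogenase phosphatases Pdp2 (1.415 ± 0.53) and Pdp1 (0.90 ± 0.45), which activate the complex, and the muscle fructose bisphosphatase Fbp2 (0.97 ± 0.57) had higher means. Without Ctrl 3-month replicate 1 they differed by 0.845, 0.175 and 0.165, and Fbp2 by 0.405 without TTg replicate 2. Pfkfb3, which makes the phosphofructokinase activator fructose 2,6-bisphosphate, was at 5.83 and 6.13 in TTg and 7.68 and 6.36 in 3-month Ctrl (−1.04 ± 0.47, adjusted p = 0.680, −0.38 without Ctrl 3-month replicate 1). Of 11 glycogen genes, 7 had a higher and 4 a lower mean (median 0.36, 0.215 without TTg replicate 1). Phkg1, the muscle catalytic subunit of phosphorylase kinase, was at 9.55 and 9.29 in TTg, 6.70 and 8.14 in 3-month Ctrl, and 9.37 and 8.06 in 2-month Ctrl (2.00 ± 0.56 at 3 months, adjusted p = 0.661). The glycogen synthase Gys1 was at 12.95 and 13.51 in TTg, 11.64 and 12.64 in 3-month Ctrl, and 11.55 and 11.88 in 2-month Ctrl. Its difference at 3 months was 1.09 ± 0.38 (2.13-fold, adjusted p = 0.661). Phkb differed by 0.795 ± 0.34 and Pgm1 by 0.605 ± 0.27. Without Ctrl 3-month replicate 1 the differences were 1.28 for Phkg1, 0.59 for Gys1, 0.335 for Phkb and 0.40 for Pgm1.

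HIF is the oxygen-sensitive factor under which many glycolytic genes are induced in hypoxia. Of 14 genes for HIF subunits and other HIF targets, 8 had a lower mean in TTg than in 3-month Ctrl (48.3% of all features) and 6 a higher one, with a median of −0.445. Of the 8, 7 did not overlap (19.3% of features), and none passed. The median was −0.25 without Ctrl 3-month replicate 1. Hif1a was at 12.33 and 11.78 in TTg, 13.66 and 12.97 in 3-month Ctrl, and 12.29 and 12.59 in 2-month Ctrl. It differed by −1.26 ± 0.33 (2.39-fold lower, adjusted p = 0.655), P4ha1, a collagen prolyl hydroxylase, by −1.325 ± 0.33, Ankrd37 by −1.165 ± 0.54 (−0.72 without TTg replicate 1) and Ero1a by −0.76 ± 0.36 (−0.27 without Ctrl 3-month replicate 1). In Ctrl at 3 against 2 months, 10 of the 14 had a higher mean (50.5% of all features, median 0.285), 6 without overlap (18.3%). That median lay between 0.285 and 0.5425 over the arrays left out, the highest without Ctrl 2-month replicate 2. Ctrl 3-month replicate 1 held the highest value of 6 of the 14 genes and Ctrl 2-month replicate 1 of 1, and both arrays had high fibroblast and macrophage markers. In TTg against 3-month Ctrl those markers had medians of −1.695 and −1.515, and their part in the HIF values was not tested. The median of the 10 glycolytic members in that comparison was 0.03.

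**Figure D5:**
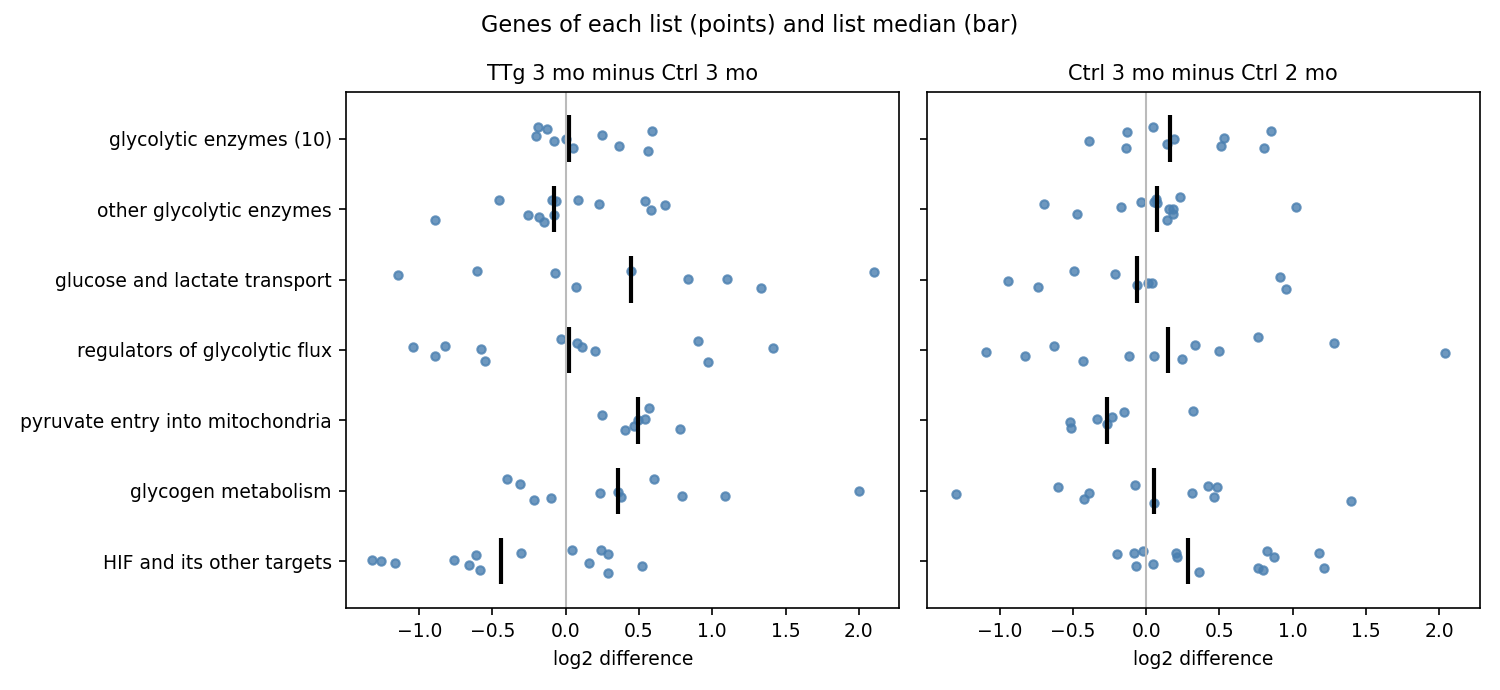
Log2 differences of each measured gene (points, jittered vertically) and list medians (bars) for TTg minus 3-month Ctrl and for Ctrl at 3 minus 2 months. The pyruvate entry genes all lie above 0 in the left panel (median 0.49), and the HIF list has a median of −0.445 there, whereas the glycolytic enzymes centre on 0.03.

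The 3 members with the widest range over the arrays were compared with 13837 other features by the root mean square difference of log2 values centred on each gene's mean. Hk2 was followed most closely by Strip2 (0.0978), Znrf1 (0.107) and Tacc2 (0.107). Pfkl was followed by Ankrd11 (0.0896), Ap1ar (0.0897) and Dop1a (0.0908), and Ldhb by Tomm70a (0.0710), Mccc2 (0.0750) and Gpbp1l1 (0.0770). The likeness rests on 6 arrays.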

How the data were processed

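RNA from the whole heart of 6 mice was hybridised to Clariom S mouse arrays, 1 per heart, from 100 ng of RNA with an integrity number above 7.0, per the labels' protocols. The deposited values are log2 signals per array feature. Per the submitters' processing notes, the tool was Transcriptome Analysis Console 4.0, whereas background, summary and normalization methods are not given in the sources used here. Genes were named from the platform annotation (19572 of 22206 features with 1 symbol, 2634 with none), through the RefSeq gene ID where a symbol was older. The values were used without further normalization.

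limma 3.58.1 in R 4.3.3 was fitted to all features and all 6 arrays with 1 coefficient per group (3 residual and 4.13 prior degrees of freedom), two-sided, with Benjamini-Hochberg adjustment over all features and a threshold of an adjusted p under 0.05. The pipeline was tested on simulated data. Groups came from the titles in the labels, and the series design calls the hearts biological replicates. Depth does not apply to arrays, and their number limits the precision. Replicate numbers are not stated to pair arrays.

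The members, gene lists, motifs and naming rule were chosen with earlier results of these data known. The rule names all 10 members, the 4 genes with the largest absolute difference of TTg from 3-month Ctrl in each other list, and the 3 closest features for the 3 members of widest range. Alternatives were median centring, a robust or trended prior, removal of dim features, quantile normalization, the compared groups alone, a replicate block and leaving out each array.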

Additional observations from a re-analysis of the deposited data

How the results depend on the processing

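No member of the glycolytic set passed in any alternative or comparison. The features past the threshold numbered 1 for TTg against 3-month Ctrl, 2 with only the groups compared, 11 with the replicate block, 0 to 2 over the arrays left out, and 1658 at an unadjusted p under 0.05. For Ctrl at 3 against 2 months there was 1, none with an intensity trend (0), quantile normalization (0) or the dim features left out (0), 0 to 6 over the arrays left out, and 1776 unadjusted. For TTg against 2-month Ctrl there were 0, with 1 under the robust prior, 5 with the replicate block, 0 to 22 over the arrays left out, and 2156 unadjusted. The replicate block changed no call of a member. Deviations of same-numbered arrays correlated at 0.120 to 0.136 across features, and with 2 numbers this does not show that arrays are paired.

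Leaving out single arrays moved the members' median for TTg against 3-month Ctrl between −0.135 and 0.13, the lowest without Ctrl 3-month replicate 1. The Pfkm to Pfkl shift lay between −0.865 and −0.455 for Ctrl at 3 against 2 months and between −0.085 and 0.325 for TTg against 2-month Ctrl. Signs changed for TTg against 3-month Ctrl in Hk2 (−0.17 to 0.66), Pgam2 (−0.32 to 0.16), Pfkp (−1.90 to 0.11), Slc2a1 (−1.56 to 0.35) and Gata4 (−0.055 to 0.565). They changed for Ctrl at 3 against 2 months in Pfkm (−0.04 to 0.42), Pgk1 (−0.37 to 0.11), Pgam2 (−0.45 to 0.18), Ldha (−0.27 to 0.36) and Ldhb (−0.845 to 0.065), and for TTg against 2-month Ctrl in Pgk1 (−0.37 to 0.11), Pgam2 (−0.53 to 0.10) and Ldha (−0.47 to 0.16). Where an array is dropped, these fits take the spread of the remaining one from the other groups. Each measured gene of the lists had 1 feature, so no other feature of a symbol could be tried.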

Other observations

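Among the regulators, Pdk4 and Pdk1, kinases that inhibit pyruvate dehydrogenase, had the largest differences between the control groups. Phka1 had the largest among the glycogen genes. These 3 genes were chosen after their values were seen. The other kinases of the list, Pdk2 (0.335 ± 0.30) and Pdk3 (0.245 ± 0.56), overlapped between the control groups. The phosphatases Pdp1 and Pdp2 were at −1.09 ± 0.45 and −0.63 ± 0.53. Pdk4, the pyruvate dehydrogenase kinase induced in fasting and by fatty acids, was at 12.46 and 12.49 in TTg, 13.15 and 13.45 in 3-month Ctrl, and 10.29 and 12.23 in 2-month Ctrl. Its difference between Ctrl at 3 and 2 months was 2.04 ± 0.56 (n = 2, 4.11-fold, limma adjusted p = 0.492, 0.0738 to 0.865 over the alternatives), and it was 1.07 without Ctrl 2-month replicate 1. Pdk1, a HIF target, was at 14.04 and 14.80 in TTg, 14.89 and 15.11 in 3-month Ctrl, and 13.54 and 13.90 in 2-month Ctrl (1.28 ± 0.32 between Ctrl at 3 and 2 months, adjusted p = 0.476). Phka1, the muscle regulatory subunit of phosphorylase kinase, was at 9.85 and 10.59 in TTg, 10.37 and 10.69 in 3-month Ctrl, and 8.72 and 9.55 in 2-month Ctrl (1.395 ± 0.38, adjusted p = 0.486). Pdk4, Pdk1 and Phka1 were higher on both Ctrl arrays at 3 months than on either at 2 months (18.3% of all features). Having been picked for large differences, they add no support by this. None passed over all features.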
